A study of Mus musculus with 9 samples.

Results

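The BCL2 family of apoptosis regulators was followed through 10 genes: Mcl1, Bcl2, Bcl2l1 and Bcl2l2, which keep cells alive, Bax and Bak1, which open the mitochondrial outer membrane, and Bid, Bcl2l11, Bbc3 and Bad, which promote death. The members are every probe whose platform gene symbol is one of these names. They come to 30 of the 45281 probes on the array and to 9 of the 19057 genes with a probe, because no probe is listed for Bax in the annotation used and Bax was not analysed here. Arrays were run on total RNA of mouse leukemia stem cells on a C57BL/6 background that carried Actin-dsRed, a red fluorescent marker. The cells were driven by MLL-AF9, a fusion oncogene of acute myeloid leukemia, and were sorted as Hoechst low, dsRed+, c-kit hi, CD34+ and FcyRII hi from bone marrow of leukemic mice of a quaternary transplant, which all groups share. Cells of 3 samples carried hairpin 97 against Csnk1a1, cells of 3 carried hairpin 94 against the same gene, and cells of 3 carried a control hairpin against luciferase (Luc). The product of Csnk1a1 is casein kinase 1 alpha, which restrains p53 and beta-catenin activity, and the 6 arrays with a hairpin against it are called knockdown arrays. No animal age is given, and nothing in the labels tells whether replicates stem from separate animals or cultures, so p-values cover only the spread among these samples.

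BCL2 family proteins decide whether the mitochondrial outer membrane stays closed. Pro-survival members hold the pore-forming effectors BAX and BAK in check, and the BH3-only proteins, which share a short helix with the rest of the family, bind the pro-survival members or the effectors and tip cells towards release of cytochrome c and caspase activation. Myeloid leukemia cells often depend on MCL1 or BCL2, and p53 induces several BH3-only genes, among them Bbc3, whose product is PUMA. The arrays measure RNA only, and protein levels, phosphorylation and complex formation, which control much of this family, are not measured by them.

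Knockdown arrays were brighter than Luc arrays, and this touches every comparison with Luc. The knockdown arrays detected 12969 to 14280 probes at a detection p under 0.05, against 9262 to 10347 on Luc arrays, a difference of 3570 probes (two-sided exact permutation p = 0.0119, the smallest that the 84 splits allow). The 2 hairpins did not differ detectably in this, with 12969 to 14168 probes for hairpin 97 and 13053 to 14280 for hairpin 94 (two-sided exact permutation p = 1, where the smallest p possible is 0.1). The knockdown itself could not be checked, since the only Csnk1a1 probe was detected on 0 arrays, with detection p between 0.293 and 0.862. Of the markers of the sorted cell, a Kit probe was detected on all 9 arrays (log2 fold change -0.32, adjusted p = 0.101 by limma). It was lower with hairpin 97 alone (-0.48, adjusted p = 0.0489 by limma). Another tested Kit probe, undetected on all Luc arrays, was at 0.237 with knockdown and 0.345 with hairpin 97 alone (adjusted p = 0.18 and 0.11 by limma). Cd34 was detected on 4 of the 6 knockdown arrays and 0 of the 3 Luc arrays. The Fc receptor genes Fcgr3 and Fcgr2b rose with knockdown, by 1.12 at the Fcgr3 probe and by 0.81 and 0.40 at 2 of the 3 tested Fcgr2b probes (adjusted p = 0.000341, 0.00623 and 0.0231 by limma). Of the 16 tested probes of the leukemia stem cell list, 7 were called higher and 0 lower, beside 25.0% and 15.2% of all tested probes. The calls were those of Fcgr3 and Fcgr2b and of all tested Mpo probes. Of the 12 probes of the mature neutrophil list 6 were tested, and all 6 rose with knockdown, where 25.0% of all tested probes were called higher. Their summed normalized signals were 9258 to 11020 on knockdown arrays and 4389 to 4978 on Luc arrays, and among them an Ltf probe was undetected on all Luc arrays. The probes of Cxcr2, Mmp8, Mmp9 and Retnlg and another Ltf probe were detected on too few arrays to be tested. Other lists moved as well: the eosinophil genes Prg2 and Epx fell by 1.18 and 0.65, Nkg7 of the T and NK list fell by 0.65, and both tested probes of the mast cell gene Cpa3, undetected on all Luc arrays, were called higher (adjusted p = 0.0003, 0.00154, 0.00323, 0.00127 and 0.00174 by limma). Of the 3 tested monocyte and macrophage probes and the 3 of stroma and endothelium 1 each was higher. That of stroma and endothelium was a Pecam1 probe undetected on all Luc arrays, and a Pecam1 probe detected on all 9 arrays was at -0.01 (adjusted p = 0.961 by limma). The B cell and megakaryocyte probes were not called, and erythroid markers had no tested probe. Fewer cells of a type and less RNA per cell cannot be told apart in these bulk samples, and the part of brightness or of other cells in the results below was not tested beyond the settings given. Arrays within a group correlated at 0.9582 to 0.9901 over probes, and with 3 arrays per group their number limits the precision.

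Most probes of the family were at background. Entry to the tests required a detection p under 0.05 on 3 or more arrays, which 11 of the 30 probes from 8 genes met. Another 10 probes were detected on 1 or 2 arrays and 9 on none, and 6 were detected on all 9, namely those of Mcl1, Bad, Bid (ILMN_3161878) and Bcl2l11 (ILMN_3157568) and 2 of Bcl2l2 (ILMN_2636443 and ILMN_2936517). The Bcl2l1 probe ILMN_2698430 passed through knockdown arrays alone, since no Luc array detected it. Just inside the threshold lay the Bcl2 probe ILMN_2597272, detected on 3 arrays, and just outside it lay 4 probes detected on 2 arrays, of Bcl2l1, Bcl2l2, Bak1 and Bcl2l11.

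**Figure D1:**
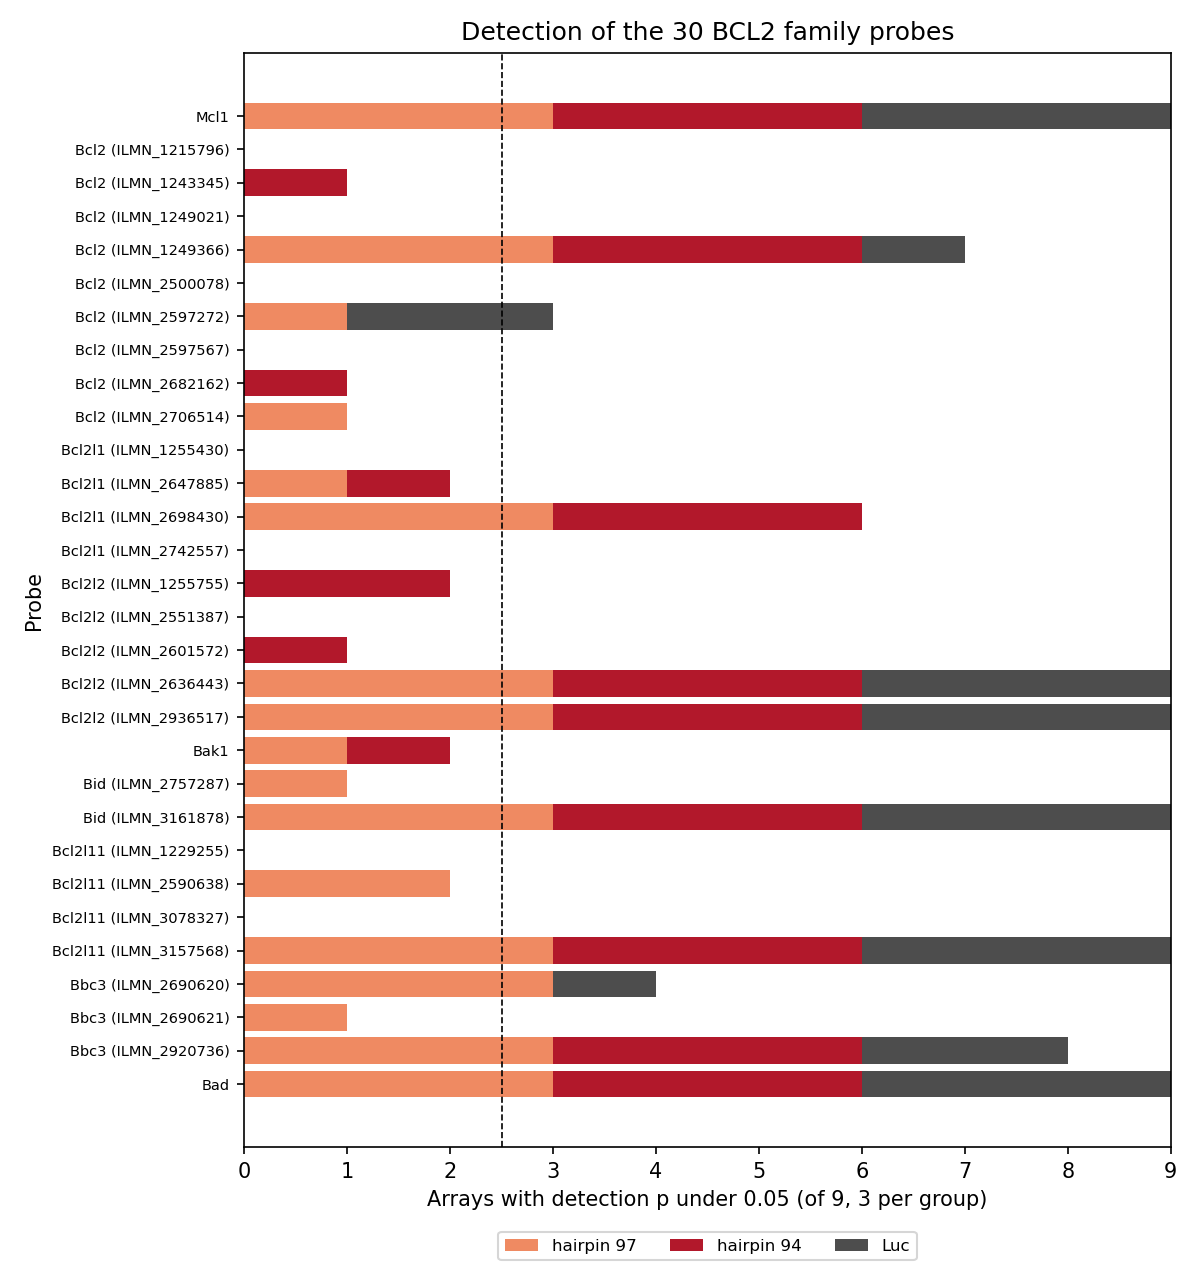
Number of arrays, of 9, on which each of the 30 BCL2 family probes had a detection p under 0.05, split by hairpin 97, hairpin 94 and Luc, with a dashed line between 2 and 3 arrays. 11 probes reach the line and 19 do not, and Luc adds no detected array to the untested probes.

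The 19 untested probes had signals between 79.35 and 115.3 units and detection p between 0.00214 and 0.997 over all arrays, and none of them was detected on a Luc array. For Bcl2, the founding survival gene of the family, 7 of 9 probes were untested. ILMN_1215796 (detection p 0.511 to 0.935), ILMN_1249021 (0.101 to 0.918), ILMN_2500078 (0.585 to 0.997) and ILMN_2597567 (0.14 to 0.846) were detected nowhere. ILMN_1243345 (0.0171 to 0.453) and ILMN_2682162 (0.0331 to 0.838) were detected on 1 hairpin 94 array each and ILMN_2706514 (0.00962 to 0.377) on 1 hairpin 97 array. Bcl2l1 and Bcl2l2 had 3 untested probes each, so even these survival genes rest on few measured probes. For Bcl2l1 they were ILMN_1255430 (0.0534 to 0.693), ILMN_2742557 (0.0994 to 0.991) and ILMN_2647885 (0.00214 to 0.823), the last detected on 2 arrays. For Bcl2l2 they were ILMN_2551387 (0.12 to 0.824), ILMN_2601572 (0.0203 to 0.953) and ILMN_1255755 (0.0107 to 0.702), the last detected on 2 hairpin 94 arrays. On the pro-death side the untested probes were as dim. The Bid probe ILMN_2757287 ranged from 0.0374 to 0.509 in detection p, and the Bbc3 probe ILMN_2690621 from 0.0288 to 0.683. For Bcl2l11 the untested probes were ILMN_1229255 (0.384 to 0.934), ILMN_3078327 (0.114 to 0.654) and ILMN_2590638 (0.015 to 0.589), the last detected on 2 hairpin 97 arrays.

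The upstream sequences of 4 members are shown because their probes carry the largest changes (Mcl1, Bad and Bbc3) or because it is the gene the family is named for (Bcl2). They are the 250 bases before a listed transcript start in RefSeq, assembly GRCm38.p6, with matches to the GC box letters GGGCGG on either strand in capitals. All 10 listed genes had an upstream sequence, 16 in total over their starts. Mcl1 lies at chr3:95658471-95658720 on the plus strand, Bcl2 at chr1:106714291-106714540 on the minus strand, Bad at chr19:6941611-6941860 on the plus strand (the first of 2 starts) and Bbc3 at chr7:16309333-16309582 on the plus strand (the first of 3 starts).
Mcl1: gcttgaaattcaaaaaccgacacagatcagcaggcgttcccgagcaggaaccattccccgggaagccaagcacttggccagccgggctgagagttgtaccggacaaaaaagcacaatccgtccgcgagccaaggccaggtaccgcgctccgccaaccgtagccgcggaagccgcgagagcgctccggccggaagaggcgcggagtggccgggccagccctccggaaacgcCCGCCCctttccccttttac
Bcl2: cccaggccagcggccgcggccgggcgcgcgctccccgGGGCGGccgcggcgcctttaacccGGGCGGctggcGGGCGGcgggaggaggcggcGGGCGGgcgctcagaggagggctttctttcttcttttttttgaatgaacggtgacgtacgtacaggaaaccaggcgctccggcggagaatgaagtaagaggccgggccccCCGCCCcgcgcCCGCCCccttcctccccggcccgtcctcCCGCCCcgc
Bad: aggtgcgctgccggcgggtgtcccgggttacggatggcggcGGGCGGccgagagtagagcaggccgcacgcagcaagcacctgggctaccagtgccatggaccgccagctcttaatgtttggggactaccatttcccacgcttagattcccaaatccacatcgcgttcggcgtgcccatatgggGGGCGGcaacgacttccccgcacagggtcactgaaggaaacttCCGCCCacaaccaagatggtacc
Bbc3: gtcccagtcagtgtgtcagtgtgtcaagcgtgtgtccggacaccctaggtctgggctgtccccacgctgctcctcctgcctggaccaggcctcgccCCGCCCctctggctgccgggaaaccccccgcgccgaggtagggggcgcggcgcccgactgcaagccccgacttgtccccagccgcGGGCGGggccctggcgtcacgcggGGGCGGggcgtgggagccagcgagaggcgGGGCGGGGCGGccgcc
The Mcl1 sequence held 1 GC box match, that of Bcl2 7, that of Bad 3 and that of Bbc3 5, where overlapping matches are counted separately. Of all 32851 upstream sequences, 32.7% held at least 1 match. The CCAAT box (CCAAT, 33.8% of all), the TATA box (TATAAA, 12.4%), the E-box (CACGTG, 6.02%) and the p53 half-site (7.13%) were searched on both strands too, and none of them had a match in these 4 sequences. The counts change with the start: the second Bad start had 0 GC box matches and 1 CCAAT box, the second Bbc3 start had 1 GC box, and the third had 7 GC boxes, 1 CCAAT box and 1 E-box. Among the 16 sequences the p53 half-site matched only upstream of Bax. A match describes letters in a window, and no match says only that these letters are not in it.

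Of the 11 tested probes, 5 rose and 1 fell in knockdown against Luc at an adjusted p under 0.05. Over all 13641 probes, 25.0% were called higher and 15.2% lower (40.2% in either direction), and the members' counts come to 45.5% higher and 9.09% lower. With 11 probes, of which that of Bcl2l1 entered the tests through knockdown arrays alone, nothing particular to the family is read from these shares. With arrays scaled to probes that every array detected, the members split into 3 higher and 5 lower. Over all 13641 probes, 1526 were then higher and 8235 lower. With arrays scaled to all probes, the members split into 9 higher and 0 lower, where 9944 of the 13641 were higher and 14 lower. The 5 that rose were the probes of Mcl1, Bad and Bcl2l1 (whose direction turned under the first of these scalings) and 1 probe each of Bcl2l2 and Bbc3. Pro-survival probes had 3 higher and 1 lower of 6, BH3-only probes 2 higher and 0 lower of 5, so both sides of the family had members that rose. The median log2 fold change was 0.35 for the pro-survival probes, 0.19 for the BH3-only probes and 0.11 for all tested probes. Because the arrays were quantile normalized, each value is relative to the remaining probes on its array.

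**Figure D2:**
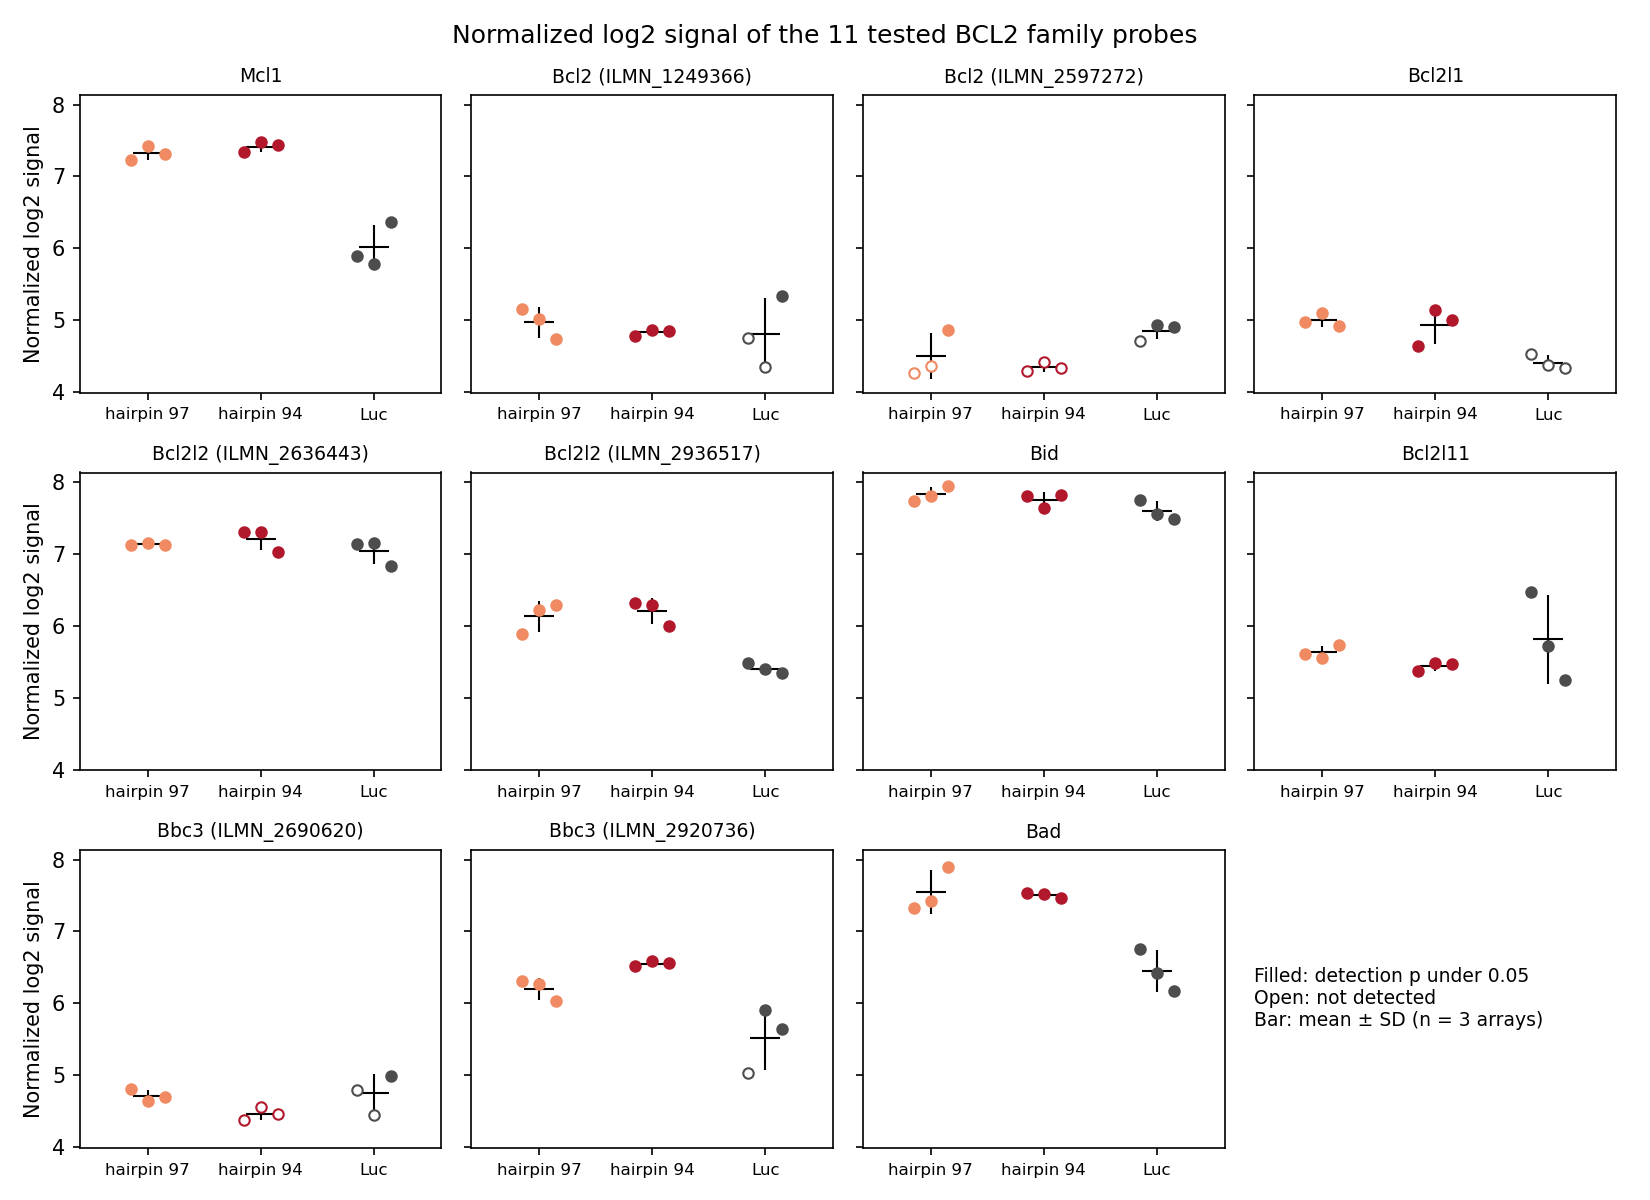
Normalized log2 signal of each of the 11 tested probes on each array, with hairpin 97, hairpin 94 and Luc from left to right, filled where the detection p was under 0.05, and the mean ± SD of 3 arrays. All knockdown arrays of Mcl1 (7.23 to 7.48) and Bad (7.33 to 7.89) lie above all Luc arrays (5.79 to 6.36 and 6.18 to 6.75), while Bid and both Bcl2 probes overlap. Of all tested probes, 21.5% have all knockdown arrays above all Luc arrays.

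Among the survival genes, Mcl1 had the largest change in the quantile-normalized values. With arrays scaled to probes that every array detected, the Bcl2 probe ILMN_2597272 moved further, at -1.64 beside 1.10 for Mcl1. MCL1 is a short-lived guardian that binds BAK and several BH3-only proteins. Its probe read 7.23, 7.42 and 7.31 on hairpin 97 arrays, 7.34, 7.48 and 7.43 on hairpin 94 arrays, and 5.90, 5.79 and 6.36 on Luc arrays in normalized log2 signal. All 6 knockdown arrays lay above all Luc arrays. The same held for 21.5% of all 13641 tested probes, and at 12.6% all 6 lay below, which applies to each such placement given below. The knockdown mean was 7.37 ± 0.093 (SD, n = 6) against 6.02 ± 0.304 (SD, n = 3) on Luc arrays, a log2 fold change of 1.35 (2.55-fold, SE 0.141, adjusted p = 0.000146 by limma). The deposited signals before normalization were 264.6 to 310.5 units on hairpin 97 arrays, 236.7 to 347.2 on hairpin 94 arrays and 115.7 to 122.2 on Luc arrays, while the mean signal of all probes was 167.56 to 201.11 units on knockdown arrays and 129.3 to 131.73 on Luc arrays. Mcl1 ranked at percentile 99.3 of all tested probes by log2 fold change. The authors' series matrix values ran from 7.49 to 7.63 on knockdown arrays and from 6.93 to 7.11 on Luc arrays.

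Bcl2 was measured by 2 probes, and neither gave a stable change. Probe ILMN_1249366 read 5.16, 5.02 and 4.73 on hairpin 97 arrays, 4.78, 4.87 and 4.85 on hairpin 94 arrays, and 4.75, 4.35 and 5.33 on Luc arrays, and the groups overlapped. It had a detection p under 0.05 on all 6 knockdown arrays and 1 Luc array, and its log2 fold change was 0.09 (95% interval -0.34 to 0.52, adjusted p = 0.734 by limma). Probe ILMN_2597272 read 4.26, 4.37 and 4.86 on hairpin 97 arrays, 4.29, 4.41 and 4.34 on hairpin 94 arrays, and 4.72, 4.93 and 4.91 on Luc arrays. Its detection ran the other way, on 1 of 6 knockdown arrays and 2 of 3 Luc arrays, and hairpin 97 replicate 6 overlapped the Luc arrays. It fell by 0.43 in log2 signal (SE 0.146, limma adjusted p = 0.0374), a value at the detection limit. The call depended on the processing and on single arrays, since it was kept in 1 of 8 other settings and in 2 of the 9 fits that leave out 1 array.

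Bcl2l1, which encodes BCL-XL, had a single tested probe. It read 4.97, 5.10 and 4.92 on hairpin 97 arrays, 4.64, 5.15 and 5.01 on hairpin 94 arrays, and 4.53, 4.37 and 4.34 on Luc arrays. The knockdown arrays lay above the Luc arrays, and all 6 knockdown arrays but no Luc array had a detection p under 0.05. Because Luc gave only a bound, the probe was at least 1.01-fold higher with knockdown (fitted log2 fold change 0.55, adjusted p = 0.00822 by limma). When arrays were scaled to those probes that every array detected, the direction turned and the probe was called lower, at -0.73 (adjusted p = 0.000452 by limma). Under cyclic loess the value was 0.17 (adjusted p = 0.378 by limma).

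Bcl2l2, which encodes BCL-W, had 2 probes detected on all 9 arrays, and they differed. Probe ILMN_2936517 read 5.89, 6.22 and 6.29 on hairpin 97 arrays, 6.32, 6.29 and 5.99 on hairpin 94 arrays, and 5.48, 5.40 and 5.34 on Luc arrays, with no overlap. It rose by 0.76 in log2 signal, or 1.70-fold (SE 0.134; limma adjusted p = 0.00151). The call was lost, at 0.21 (adjusted p = 0.222 by limma), when arrays were scaled to probes that every array detected. Probe ILMN_2636443 read 7.12, 7.15 and 7.13 on hairpin 97 arrays, 7.30, 7.31 and 7.03 on hairpin 94 arrays, and 7.13, 7.15 and 6.83 on Luc arrays, and the groups overlapped. Its log2 fold change was 0.14 (95% interval -0.14 to 0.41, adjusted p = 0.402 by limma). A difference between the fold changes of the probes was not tested.

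The effectors could not be compared. Bak1, which encodes the pore former BAK, had 1 probe (ILMN_2945835), detected on 1 hairpin 97 array and 1 hairpin 94 array, with detection p between 0.00214 and 0.689 over the 9 arrays, and Bax was not analysed here. No level of either effector can therefore be set beside those of the survival and BH3-only genes.

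Among the BH3-only genes, Bad had the largest change in the quantile-normalized values. With arrays scaled to probes that every array detected, the Bbc3 probe ILMN_2690620 moved further, at -1.38 beside 0.98 for Bad. BAD binds BCL2, BCL-XL and BCL-W and is inactivated by phosphorylation and 14-3-3 binding. Its probe read 7.33, 7.42 and 7.89 on hairpin 97 arrays, 7.54, 7.52 and 7.46 on hairpin 94 arrays, and 6.75, 6.42 and 6.18 on Luc arrays. Every knockdown array lay above every Luc array. It was 2.11-fold higher, a log2 rise of 1.08 (SE 0.163; limma adjusted p = 0.000709). Its deposited signals were 264.1 to 371.9 units on hairpin 97 arrays, 261.5 to 356.6 on hairpin 94 arrays and 118.1 to 130.8 on Luc arrays.

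Bbc3 had 2 tested probes, and only ILMN_2920736 passed. It read 6.32, 6.27 and 6.03 on hairpin 97 arrays, 6.51, 6.58 and 6.57 on hairpin 94 arrays, and 5.03, 5.90 and 5.64 on Luc arrays. All knockdown arrays lay above all Luc arrays, and Luc replicate 1, with a detection p of 0.0524, was the only array that did not detect it. The log2 rise was 0.86, or 1.81-fold (SE 0.176; limma adjusted p = 0.00349). Probe ILMN_2690620 read 4.81, 4.64 and 4.70 on hairpin 97 arrays, 4.38, 4.56 and 4.45 on hairpin 94 arrays, and 4.80, 4.45 and 4.99 on Luc arrays. These groups overlapped and the probe was close to background, detected on 3 hairpin 97 arrays, 0 hairpin 94 arrays and 1 Luc array. Its log2 fold change was -0.16 (adjusted p = 0.374 by limma).

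Bid and Bcl2l11 were detected on all 9 arrays by 1 probe each, and neither passed. Bid encodes a BH3-only protein that caspase-8 cleaves into its active form, and its probe read 7.73, 7.81 and 7.95 on hairpin 97 arrays, 7.80, 7.63 and 7.82 on hairpin 94 arrays, and 7.76, 7.56 and 7.49 on Luc arrays. The groups overlapped after normalization, while the deposited signals did not, at 296 to 407.7 units on knockdown arrays and 167.9 to 172.9 on Luc arrays. The log2 fold change of Bid was 0.19 (95% interval -0.07 to 0.45, adjusted p = 0.22 by limma). Bcl2l11, which encodes BIM, a binder of all survival members, read 5.61, 5.56 and 5.73 on hairpin 97 arrays, 5.37, 5.48 and 5.47 on hairpin 94 arrays, and 6.47, 5.71 and 5.25 on Luc arrays. The Luc arrays were the more spread of the groups, with the knockdown arrays inside their range. Its log2 fold change was -0.28 (95% interval -0.75 to 0.20, adjusted p = 0.324 by limma), or 0.052 without Luc replicate 1 and -0.559 without Luc replicate 3.

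**Figure D3:**
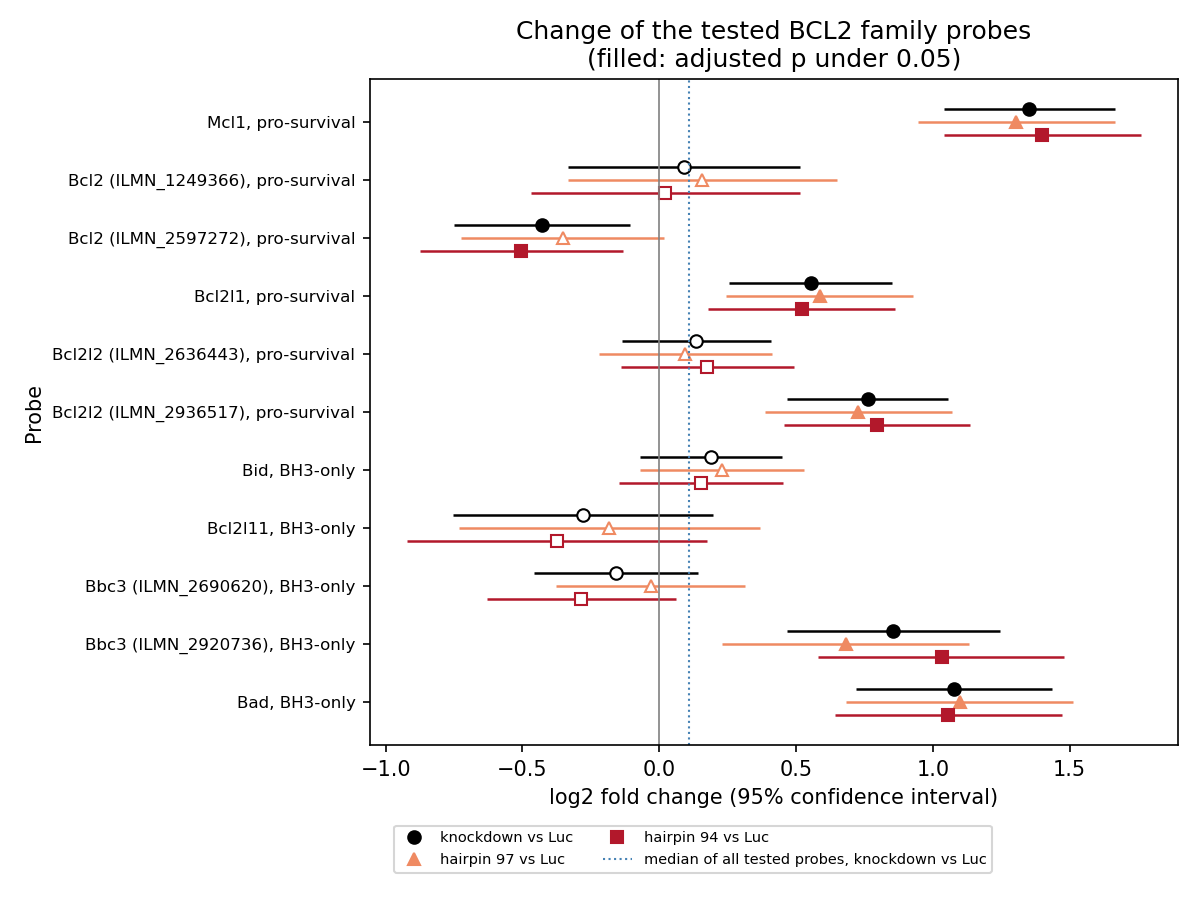
Log2 fold change with its 95% interval of the 11 tested probes in knockdown (mean of both hairpins), hairpin 97 and hairpin 94 against Luc, filled where the adjusted p was under 0.05, with the median of all tested probes (0.11) as a dotted line. Mcl1 and Bad stand farthest to the right, at 1.35 and 1.08, and the Bcl2 probe ILMN_2597272 lies farthest to the left at -0.43.

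Each hairpin was also set against the same 3 Luc arrays, which they share. With hairpin 97, 5 probes rose and 0 fell, against 20.6% of all probes higher and 12.3% lower (32.9% in either direction). With hairpin 94, 5 probes rose and 1 fell, where 20.0% of all probes were higher and 12.3% lower (32.4% in either direction). Mcl1 rose by 1.30 with hairpin 97 and by 1.40 with hairpin 94 on the log2 scale (adjusted p = 0.000522 and 0.000455 by limma). Bad rose by 1.10 with hairpin 97 and by 1.06 with hairpin 94 (adjusted p = 0.00197 and 0.00247 by limma). For Bbc3 (ILMN_2920736) the values were 0.68 with hairpin 97 and 1.03 with hairpin 94 (adjusted p = 0.0263 and 0.00402 by limma). The hairpin 97 call passed in 5 of 10 other settings and in 3 of 6 fits without 1 array, with 0.32 (adjusted p = 0.119 by limma) under cyclic loess and 0.433 (adjusted p = 0.0546 by limma) without Luc replicate 1. The Bcl2 probe ILMN_2597272 was at -0.35 with hairpin 97 (adjusted p = 0.131 by limma) and was called lower with hairpin 94 (adjusted p = 0.0413 by limma). No hairpin 94 array detected it, and its bound was 1.18-fold lower. Luc replicate 1 did not detect it either (detection p 0.101), so this bound is not a firm minimum. The call of this probe with hairpin 94 passed in 2 of 10 other settings and in 1 of 6 fits without 1 array. Bcl2l2 (ILMN_2936517) rose by 0.73 with hairpin 97 and by 0.80 with hairpin 94 (adjusted p = 0.00539 and 0.00368 by limma). With arrays scaled to probes that every array detected it was at 0.16 and 0.26 (adjusted p = 0.426 and 0.2 by limma), and with cyclic loess the hairpin 97 value was 0.38 (adjusted p = 0.0903 by limma). Bcl2l1 was at least 1.04-fold higher with hairpin 97 (adjusted p = 0.0156 by limma), and with hairpin 94 it was called (adjusted p = 0.0266 by limma) but its bound gave no fold. With hairpin 94, Bcl2l1 had an adjusted p under 0.05 in 4 of 11 other settings and in 2 of 6 fits without 1 array. The 4 settings include a call in the opposite direction, at -0.727 (adjusted p = 0.00172 by limma), with arrays scaled to probes that every array detected. Under that scaling the direction with hairpin 97 turned too, to -0.738.

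Hairpin 97 against hairpin 94 called 0 of the 11 probes by limma, and 0 at an unadjusted p under 0.05. Over all probes 0.0293% were called higher and 0.110% lower, or 0.139% in either direction. The widest difference was that of Bbc3 (ILMN_2920736), at -0.35 (95% interval -0.80 to 0.10, adjusted p = 0.72 by limma). For Mcl1 it was -0.09 (95% interval -0.46 to 0.27) and for Bad 0.04 (95% interval -0.37 to 0.46). A difference that misses the threshold does not show that the hairpins act alike, and the intervals give the sizes that remain possible.

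How arrays are brought to one scale moved the members. The median log2 fold change of all tested probes was 0.11 with quantile normalization, 0.00 with cyclic loess, -0.55 when arrays were scaled to probes that all 9 detected, and 0.88 when they were scaled to all probes. Relative to that median, over the 4 scalings Mcl1 lay between 1.16 and 1.66, Bad between 0.97 and 1.54 and Bbc3 (ILMN_2920736) between 0.51 and 0.89. These 3 stayed above the median of all probes in each. Scaling to probes that all 9 detected and scaling to all probes gave identical values relative to the median (1.66 for Mcl1 in both). They are therefore not separate results. Bcl2l2 lay between 0.42 and 0.77 (ILMN_2936517) and between 0.03 and 0.68 (ILMN_2636443), and Bid between 0.08 and 0.76. Both Bcl2l2 probes and Bid thus also stayed above the median in each scaling. The Bcl2 probes lay below the median in each, from -0.45 to -0.02 (ILMN_1249366) and from -1.09 to -0.23 (ILMN_2597272). So did Bcl2l11, from -0.39 to -0.13, and the other tested Bbc3 probe (ILMN_2690620), from -0.83 to -0.11. Bcl2l1 crossed the median, from -0.18 to 0.44.

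**Figure D4:**
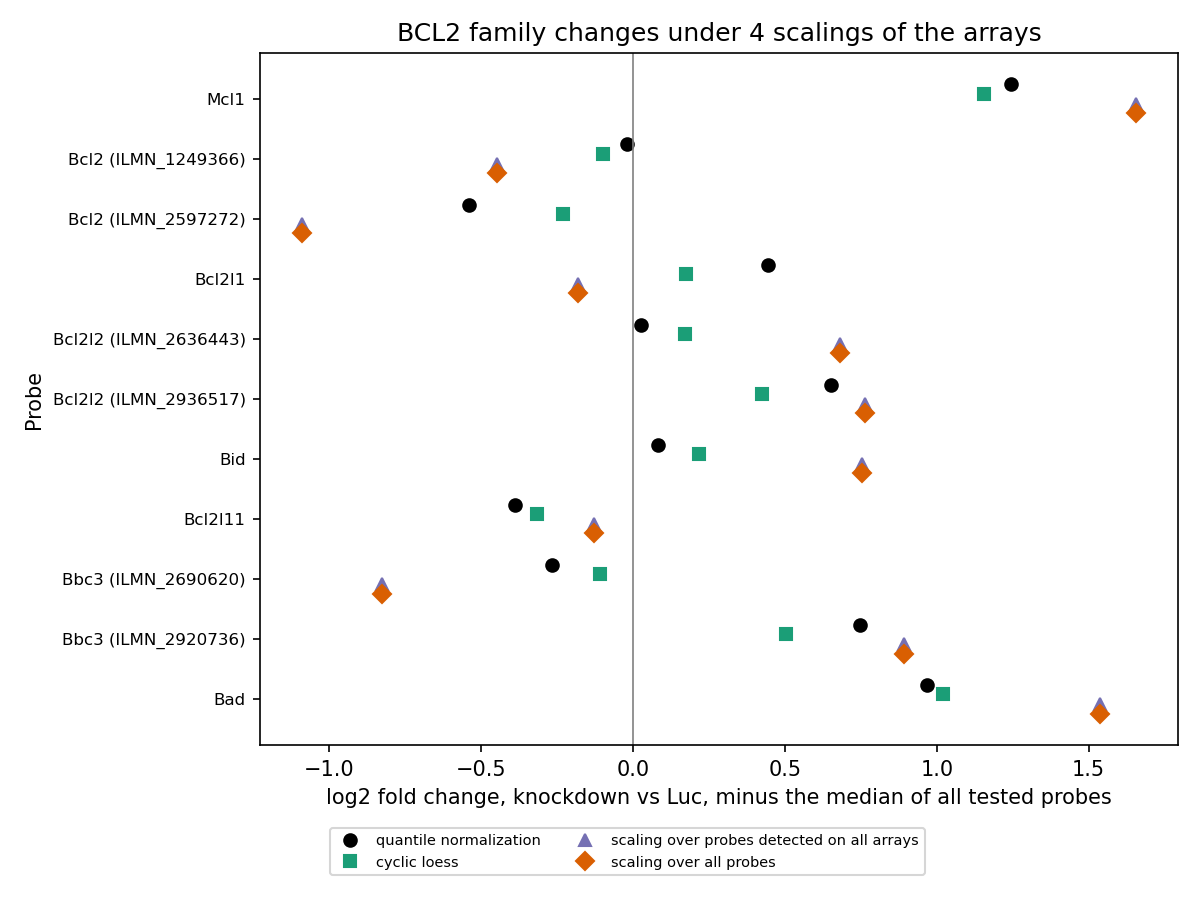
Log2 fold change of the 11 tested probes in knockdown against Luc, minus the median of all tested probes, under 4 ways of scaling the arrays. Scaling over probes that all arrays detected and scaling over all probes give the same values here. Mcl1 and Bad stay farthest to the right under each scaling, and Bcl2l1 lies on both sides of 0.

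With the number of detected probes per array as a covariate, 0 of the 11 probes and 0 of all 13641 passed in limma. Mcl1 was then at 1.19 (adjusted p = 0.476 by limma), Bad at 1.68 (adjusted p = 0.426 by limma) and Bbc3 (ILMN_2920736) at -0.03 (adjusted p = 0.992 by limma). Every knockdown array detected more probes than every Luc array, so brightness and knockdown cannot be told apart in these 9 arrays.

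Of the other BCL2 family genes, a list of 17 of which 8 had a tested probe, 6 of 12 probes rose and 1 fell in knockdown against Luc, with a median log2 fold change of 0.36, where 25.0% of all tested probes were higher and 15.2% lower. Of the 6, those of Bcl2l13, Bcl2l12 and Pmaip1 were undetected on all Luc arrays and entered the tests through knockdown arrays alone. Bnip3l, which encodes the mitophagy receptor NIX, rose by 0.78 (adjusted p = 0.000625 by limma), with values of 8.70 to 8.97 on knockdown arrays and 7.94, 8.13 and 8.10 on Luc arrays. Bcl2a1d and Bcl2a1b, mouse copies of the survival gene A1, rose by 0.65 and 0.50 (adjusted p = 0.00281 and 0.0427 by limma), but these copies are nearly identical, so the assignment to a copy is uncertain, and a second Bcl2a1d probe was at 0.05. Bcl2l13 was at least 1.12-fold higher at 1 probe, with 0.26 at the other, and Bcl2l12 was at least 1.09-fold higher at 1 probe and fell by 0.39 at the other (adjusted p = 0.0278 by limma). Pmaip1, the BH3-only gene for NOXA and a p53 target, was detected on 5 of 6 knockdown arrays and 0 of 3 Luc arrays and was called higher (adjusted p = 0.0207 by limma), but its bound gave no fold.

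Regulators of the family, a list of 29 genes of which 16 had a tested probe, gave 11 probes higher and 2 lower of 24, with a median of 0.33, beside the same 25.0% and 15.2% of all tested probes. The probes of Ywhaq and Fbxw7 and a Ddit3 probe, counted among the 11, were undetected on all Luc arrays. Of the 14-3-3 proteins that hold phosphorylated BAD away from mitochondria, Ywhab rose by 1.24 and 0.54 at its 2 probes (adjusted p = 0.000298 and 0.0391 by limma), Ywhaq was at least 1.45-fold higher and Ywhaz rose by 0.72 (adjusted p = 0.0108 by limma). Casp8, which cleaves BID, rose by 0.69 and 0.38 at its 2 probes (adjusted p = 0.00196 and 0.0463 by limma). Fbxw7, part of a ubiquitin ligase that targets MCL1, was at least 1.39-fold higher, whereas Btrc, part of another such ligase, fell by 0.71 (adjusted p = 0.00252 by limma) at 1 probe. Ddit3, a stress transcription factor that acts on Bcl2 and Bcl2l11, fell by 1.18 at its brighter probe (adjusted p = 0.000517 by limma). Its other probe, undetected on all Luc arrays, was called higher (adjusted p = 0.0477 by limma) without a fold. The remaining calls were Stat3 at 0.96, Rela at 0.63 and E2f1 at 0.33 (adjusted p = 0.00706, 0.00342 and 0.0342 by limma), and 2 other Stat3 probes, at 0.34 and -0.43, did not pass.

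Mitochondrial partners and released proteins, a list of 14 genes of which 10 had a tested probe, gave 4 probes higher and 2 lower of 20, with a median of -0.05. Over all tested probes 25.0% were higher and 15.2% lower, and with 20 probes nothing particular to the list is read from these counts. Casp9, the caspase of the apoptosome, rose by 0.82 (adjusted p = 0.00195 by limma) at 1 probe, with -0.05 at the other. Diablo, an inhibitor of IAP proteins that is released from mitochondria, fell by 0.60 (adjusted p = 0.00187 by limma). Htra2, a mitochondrial protease with a like role, rose by 0.67 at 1 probe (adjusted p = 0.00392 by limma), fell by 0.42 at another (adjusted p = 0.0149 by limma) and was at -0.12 at the third. Vdac2, which holds BAK at the membrane, rose by 0.62 (adjusted p = 0.0315 by limma), and Mtch2, the receptor for truncated BID, by 0.50 (adjusted p = 0.0179 by limma), with -0.14 and 0.37 at its other probes. The 3 tested probes of Apaf1, the apoptosome scaffold, were at -0.31, -0.13 and -0.24 and did not pass.

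The genes most like the called members over the 9 arrays are given as a description, since all share the same arrays and the same brightness. With Mcl1 the highest Pearson correlations were those of Atp2a3 (0.992), H4c17 (0.989) and Phax (0.988). With Bad they were Hes6 (0.991), Nt5m (0.985) and Mogs (0.983). With Bbc3 (ILMN_2920736) they were Casp4 (0.983), Pdxk (0.975) and Slirp (0.97), and with Bcl2l1 they were Rad17, Ankrd27 and Nme7 (0.974 each).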

How the data were processed

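Total RNA of sorted leukemia stem cells was labelled with biotin and hybridised to Illumina bead arrays, per the labels' protocols. Sample titles give the groups. Per the file headers, the deposited table pairs each probe's intensity (its average signal) with a detection p-value on every array. From the values, background was left in and arrays were not scaled. The deposited series matrix holds log2 values in the rank order of the signals, with a median of 6.612 on every array, as after quantile normalization. Of the software and genome build behind them, nothing is stated: not given in the sources used here. No slide or scan date was given, so no batch was tested. 0 pairs of arrays were identical.

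The neqc function (limma 3.58.1, R 4.3.3, offset 16) corrected background and applied quantile normalization, and the 13641 probes with a detection p under 0.05 on at least 3 arrays were kept. lmFit and eBayes fitted a mean per group to all 9 arrays, with Benjamini-Hochberg adjustment over all kept probes and a threshold of 0.05. Adjusted p-values are from this fit unless another setting is named with the value. The fit was also tested on simulated data. A probe undetected on every array of a group has a bound: the other group's mean against, on each array, its own signal or the lowest detected signal, whichever is higher. Fold changes of dim probes depend on the offset and background correction.

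The platform annotation gave 34885 probes 1 symbol, 18 several and 10378 none listed, and 34807 probes were found in the GRCm38.p6 gene table. Every probe of a member is accounted for, and all that were detected on at least 3 arrays have their values given. Genes of the 3 further lists are named where they passed, with some others for comparison. The 3 most correlated genes are named for each called member whose brightest probe passed. The members and lists were chosen with earlier results of these data known. Alternatives covered the background correction, offset, scaling, filter, probe choice, arrays fitted, brightness, a replicate block and leaving out arrays.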

Additional observations from a re-analysis of the deposited data

How the results depend on the processing

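In limma fits, 6 member probes passed for knockdown, 6 for hairpin 94, 5 for hairpin 97 and 0 for hairpin 97 against hairpin 94. With only the probes detected on all 9 arrays these were 3, 3, 3 and 0, of 6 probes tested, and with detected probes per array as a covariate they were 0 in each. For hairpin 97 the count was 2 with cyclic loess and 9 with scaling over all probes. Leaving out 1 array gave 5 to 6 for knockdown, 4 to 6 for hairpin 94, 3 to 6 for hairpin 97 (3 without hairpin 97 replicate 5) and 0 for the hairpins against each other. For knockdown, scaling over probes that all arrays detected gave 3 member probes higher and 5 lower, and scaling over all probes 9 and 0. Of all calls for knockdown, 62.2% were higher, against 15.6%, 99.9% and 47.8% with those scalings and cyclic loess. The cause of these changes was not tested, except that fewer probes are tested under the stricter filter.

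Over all probes 5485 passed for knockdown. The count was 9761 with scaling over probes that all arrays detected, 9958 with scaling over all probes, 3465 with 1 probe per gene, 0 with the covariate, and 4572 to 5523 without 1 array. For hairpin 94 it was 4413, and in the same order 8998, 9351, 2847, 0 and 3195 to 4773. For hairpin 97 it was 4487, and in the same order 9215, 9420, 2888, 0 and 3029 to 4725. For hairpin 97 against hairpin 94 it was 19. It became 135 without background correction, 155 with the series matrix, 87 with an offset of 50, 190 with cyclic loess, 68 with scaling over probes that all arrays detected, 89 with only those probes, 8 with no filter, 34 with 1 probe per gene, 135 with only the groups compared, and 0 to 2 without 1 array.

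Directions turned for 5 member probes. In knockdown against Luc, Bcl2 (ILMN_1249366) was at -0.101 with cyclic loess, -0.999 with scaling over probes that all arrays detected, -0.288 with the covariate, and from -0.139 (without Luc replicate 2) to 0.35 (without Luc replicate 3) with 1 array left out. Bcl2l1 was at -0.732 with scaling over probes that all arrays detected, -0.727 for hairpin 94 and -0.738 for hairpin 97. Bcl2l11 was at 0.754 with scaling over all probes, 0.68 with the covariate and from -0.559 (without Luc replicate 3, where it passed) to 0.052 (without Luc replicate 1) with 1 array left out. Bbc3 (ILMN_2690620) was at 0.056 with scaling over all probes, and Bbc3 (ILMN_2920736) at -0.032 with the covariate, or -0.212 for hairpin 97.

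Mcl1 and Bad kept their calls in each of the 9 fits without 1 array and in all settings except the covariate. Of the member values in knockdown against Luc, 76 of 102 under other settings kept direction and side of the threshold, 13 no longer passed, 5 newly passed and 8 reversed. Without 1 array, 89 of 99 kept both, 7 no longer passed, 1 newly passed and 2 reversed.

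Replicate numbers do not pair samples by the labels. The deviations of Luc and hairpin 94 arrays with the same number correlated at 0.0678, 0.0486 and 0.141, and not every array correlated best with its own number. With the replicate block 4 member probes passed for hairpin 94 and 2579 of all probes, and Bcl2 at -0.505 (adjusted p = 0.0676 by limma) and Bcl2l1 at 0.52 (adjusted p = 0.104 by limma) did not. No paired analysis was possible for hairpin 97 because its numbers differ from those of Luc.

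The difference in detected probes, 3570, ranged from 3223 to 3766 without 1 array and was 3692 at a detection p under 0.01, a setting chosen after seeing the data. The difference in mean signal, 54.47 units, ranged from 51.2 to 57.91. Fitting only the groups compared is the same fit as the main one for knockdown against Luc. Probes near background limit what can be seen: 19 of the 30 were not tested.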
